A study of Mus musculus with 661 samples.

Results

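In old mice, some cells sorted from the bone surface as osteoprogenitors have expression profiles that place them in the same clusters as the stromal cells of the central marrow that carry the leptin receptor. These endosteal cells are described here beside the marrow cells of those clusters. The members are old cells sorted as OPr or mOPr that the authors' clustering of non-endothelial cells put in cluster 1 or 2 (M1 and M2), against old cells sorted as MSC-L in cluster 1 or 2. That gave 24 endosteal cells (10 OPr and 14 mOPr) and 56 marrow cells, 80 of the 661 cells in all. Of the endosteal cells 11 belonged to M1 and 13 to M2, and of the marrow cells 33 belonged to M1 and 23 to M2.

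The study read the RNA of single stromal cells, sorted into plates, from the endosteum and the central marrow of young and old mice. All 80 cells came from old C57BL/6 wild-type mice, and the methods name both sexes and no treatment for this experiment. The methods put old mice at 18 months or more, mostly near 24 and at most 31 months, and no label gives the age of the mice behind these cells. MSC-L cells were sorted from flushed femur plugs as cells without blood, endothelial and Sca-1 surface markers that carried CD51, PDGFRα and LepR. The endosteal cells came from crushed leg, arm and pelvic bones digested for a longer time with collagenase, and both populations were sorted as LepR-negative, with PDGFRα in mOPr and without it in OPr. Site, bones and digestion time therefore differ together between the sides and cannot be told apart. The paper took these cells from several old mice, but no label names the mouse of a cell. Each side was therefore summed as 1 sample without replicates, and no test was made.

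Stromal cells with the leptin receptor wrap the sinusoids of the marrow and are a main source of the chemokine CXCL12 and of stem cell factor, the product of *Kitl*, which hold and feed blood stem cells. Osteoprogenitors line the bone and give rise to cells that lay down and mineralize matrix. Immediate early genes, such as *Fos* and *Egr1*, encode transcription factors that cells switch on within minutes of a stimulus, from growth factors and cytokines to the handling of tissue.

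Levels are the summed counts of a side per 1000000 nuclear counts (CPM), with exact 95% Poisson intervals in parentheses, and differences are log2 ratios of CPM + 1, endosteal over marrow, so that a positive value is higher in endosteal cells. Reads from PCR without molecular identifiers are not independent molecules, so the intervals cover counting error only. Counts per cell, mitochondrial genes included, had a median of 642394 in endosteal cells (245569 to 1503374) and of 357288 in marrow cells (93274 to 539381). The median number of genes counted in a cell was 5761 in endosteal and 5922 in marrow cells. Within M1 it was 6741 in endosteal and 6419 in marrow cells, and within M2 5238 and 4249. The endosteal cells were thus read more deeply, and within each cluster their median number of genes was higher. The median mitochondrial share of counts within M2 was 1.25% in endosteal and 3.02% in marrow cells. Within M1 it was 1.23% and 1.32%.

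The endosteal members carried *Cxcl12* and *Lepr*, markers of MSC-L cells. *Cxcl12* was near its marrow level with both clusters together, and *Lepr* was lower in the typical cell. *Cxcl12* was at 40192 CPM (40094 to 40290) in endosteal and 40496 CPM (40406 to 40586) in marrow cells, a log2 ratio of -0.01. Single endosteal cells ranged from 6261 to 68230 CPM with a median of 37143, and marrow cells from 7306 to 65534 CPM with a median of 39159. The ratio of *Cxcl12* was -0.07 within M1 and 0.37 within M2. Within M1 the median cell had 36878.5 CPM in endosteal and 46367.5 CPM in marrow cells, and within M2 37406.8 and 27536.3 CPM. *Lepr*, which encodes the leptin receptor, was at 2518 CPM (2494 to 2543) against 3310 CPM (3284 to 3336), a log2 ratio of -0.39 (0.08 within range 1 of the running numbers described below and -0.90 within range 2). Single endosteal cells ranged from 349 to 8101 CPM of *Lepr* with a median of 1663, and marrow cells from 604 to 8561 CPM with a median of 2990, and 7 of 24 endosteal cells lay above the marrow median. Within M1 the median cell had 2878 CPM of *Lepr* in endosteal and 3123 CPM in marrow cells, and within M2 1382 and 1879 CPM. The clusters mix in different proportions on the 2 sides, and the part of that mix in the pooled medians was not tested. The ranges of the 2 sides overlapped widely for both genes. All 3 marker genes are among the guide genes from which the authors built the clusters, so their presence follows from the choice of cells. In the 31 old OPr and mOPr cells outside M1 and M2, *Cxcl12* was at 187 CPM, *Lepr* at 46.5 CPM and *Kitl* at 15.4 CPM. Of these 31 cells, 8 carried 7 or more leukocyte markers at 10 CPM or more, and in the 23 others *Cxcl12* was at 256 CPM, *Lepr* at 65.5 CPM and *Kitl* at 21.7 CPM.

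The sort and the RNA differed for the receptors that defined the gates. *Lepr* RNA was at 10 CPM or more in 24 of 24 endosteal cells, all sorted as LepR-negative, and the lowest of them had 349 CPM. *Pdgfra*, the gene of the receptor that separates the endosteal gates, was at 1001 CPM (977 to 1026) in mOPr and 427 CPM (414 to 440) in OPr members, and 9 of the 10 OPr members had 10 CPM or more. In marrow cells *Pdgfra* was at 715 CPM (703 to 727). OPr members thus held *Pdgfra* RNA although sorted without the protein, at a lower level than mOPr members. *Itgav*, which encodes CD51, was at 117 CPM in endosteal and 200 CPM in marrow cells (log2 ratio -0.76, but 0.82 within range 1, -1.12 within range 2, 0.07 within M1 and -1.84 within M2), and *Eng*, a co-receptor of TGF-β, at 81.4 and 93.9 CPM (-0.20). The genes of surface proteins that the gates exclude were near 0: *Ptprc* (CD45) at 0.06 and 0.84 CPM, *Pecam1* (CD31) at 1.30 and 1.21 CPM, and *Ly6a* (Sca-1) at 15.9 and 4.05 CPM with 10 CPM or more in 2 endosteal and 3 marrow cells. Of the 7 genes on the list of sorting markers, 5 were measured, with 1 at least 2-fold higher (*Ly6a*), 0 lower and a median of -0.20. In OPr members alone 0 were higher and 2 lower (median -0.74). The ratio of *Ly6a* was 1.74 with all members, -1.64 in OPr members alone and 0.34 within range 1. Of its endosteal counts, 47.5% came from 1 cell.

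The share of M2 was 54.2% (13 of 24, exact Clopper-Pearson interval 32.8 to 74.4) among endosteal members and 41.1% (23 of 56, 28.1 to 55.02) among marrow members. It was 71.4% in mOPr and 30.0% in OPr members. These intervals cover the draw of cells only, and each side was treated as 1 sample. Because M1 and M2 mix in different proportions, each comparison below was also made within M1 and within M2.

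Across the transcriptome, endosteal and marrow members of the same clusters differed in many genes. A gene was measured if it had at least 100 counts over the 80 cells and was counted in at least 5 of them, and 12432 genes were. Of these, 1790 (14.4%) were at least 2-fold higher in endosteal cells and 2634 (21.2%) at least 2-fold lower, with a median log2 ratio of -0.11. Within M1, 1853 genes (14.9%) were at least 2-fold higher and 3345 (26.9%) at least 2-fold lower, and within M2, 3165 (25.5%) and 3839 (30.9%). The counts of the gene lists below are to be read against these shares. Fewer genes passed in both clusters, 612 higher (4.92%) and 1286 lower (10.3%), while 551 were at least 2-fold higher within M1 and lower within M2 and 806 the reverse. Sums over 24 cells miss rarely counted genes more often than sums over 56, and without the top cell of each side for each gene the counts were 1202 higher and 3872 lower.

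Endosteal members lay closer to marrow members than to the other old endosteal cells. Pearson's r across the 12432 genes, on log2(CPM + 1), was 0.763 between endosteal and marrow members and 0.615 between endosteal members and the 31 old OPr and mOPr cells outside M1 and M2 (0.623 with the 23 that had fewer than 7 leukocyte markers). Without the guide genes, which leaves 12148 genes, the values were 0.753 and 0.634. Endosteal members had an r of 0.797 with the 51 young MSC-L cells of M1 and M2, and marrow members one of 0.861. With the 5 young endosteal cells of M1 and M2, endosteal members had an r of only 0.640 (0.627 without guide genes). The groups differ in their number of cells, and the part of that number in r was not tested. Since the clusters were made from expression, a closer likeness follows in part from the choice of cells, and genes are not independent replicates. The OPr and mOPr members had an r of 0.641 with each other and of 0.714 and 0.705 with marrow members, from 10 and 14 cells.

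Immediate early genes had the highest median ratio of the lists with at least 5 genes measured, with both clusters together. Of 27 genes measured, 24 were at least 2-fold higher in endosteal cells and 0 at least 2-fold lower, and the median log2 ratio was 1.93 against -0.11 over all measured genes. Within M1, 22 were at least 2-fold higher (median 2.06), and within M2, 23 (median 2.45). The 3 genes between the limits, *Dusp1* (0.81), *Errfi1* (0.49) and *Rhob* (0.22), are named after their values were seen. The summed level of the list was 34740 CPM in endosteal and 6659 CPM in marrow cells.

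*Fos*, a subunit of the AP-1 transcription factor, was at 15443 CPM (15382 to 15503) in endosteal cells and 838 CPM (825 to 851) in marrow cells, a log2 ratio of 4.20. Endosteal cells ranged from 17.1 to 38058 CPM with a median of 11950, and marrow cells from 0 to 7095 CPM with a median of 82.3. In 14 of the 24 endosteal cells *Fos* exceeded its highest value in a marrow cell. *Junb*, a partner of *Fos* in AP-1, was at 2222 and 368 CPM (2.59), and *Egr1*, a zinc finger factor, at 3187 and 608 CPM (2.39). *Cyr61*, which encodes a secreted matrix protein, was at 1891 and 784 CPM (1.27, with 0.51 within M2). *Fos* and *Egr1* were higher in endosteal cells in both clusters, with ratios within M1 and M2 of 4.60 and 3.57 for *Fos* and of 2.50 and 2.72 for *Egr1*.

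*Nr4a1*, an orphan nuclear receptor of the immediate early class, had the largest increase among the genes that kept their direction by the rule of size given below. It was at 993 CPM (978 to 1009) in endosteal and 16.8 CPM (15.0 to 18.7) in marrow cells, a log2 ratio of 5.81. The median endosteal cell had 81.96 CPM and the highest 4180 CPM, and the median marrow cell had 4.28 CPM and the highest 389 CPM. Of the endosteal cells, 6 had no count of *Nr4a1* and 7 lay above every marrow cell, so the level was uneven among them. *Ier3*, an immediate early gene tied to cell survival, was at 166 and 5.10 CPM (4.78).

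The level of these genes was graded among the endosteal cells and high in some cells of either cluster. As a score, the mean of log2(CPM + 1) over the 27 genes had a median of 5.88 in endosteal cells (1.98 to 9.11) and 3.41 in marrow cells (0.45 to 7.08). The median was 6.29 in mOPr and 5.88 in OPr members. In 20 of 24 endosteal cells the score was above the marrow median, and in 7 it was above the highest marrow cell. Those 7 cells came from both clusters (4 of M1 and 3 of M2) and both gates (5 mOPr and 2 OPr). By the running numbers of the cell titles, which fall into separate ranges of unstated meaning, 6 of the 7 came from range 2 (11 endosteal cells) and 1 from range 1 (13 endosteal cells). The list's median log2 ratio was 2.30 within range 1 and 2.05 within range 2, so the difference was present in both.

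The summed level of immediate early RNA was also high in endosteal cells of other kinds. The summed level of the 27 genes was 32186 CPM in the 31 old endosteal cells outside M1 and M2 (34686 CPM in the 23 of them with fewer than 7 leukocyte markers), 35775 CPM in the 5 young endosteal cells of M1 and M2, and 6651 CPM in the 51 young MSC-L cells of M1 and M2. By these sums the 3 endosteal groups lay close to each other and the marrow groups close to each other, each summed as 1 sample, but the genes behind them differed. The median of the 27 genes was 380 CPM in endosteal members, 737 CPM in the other old and 506 CPM in the young endosteal cells, while *Fos* was at 15443, 7004 and 8953 CPM. The part of site and of digestion in this difference cannot be told apart.

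**Figure D1:**
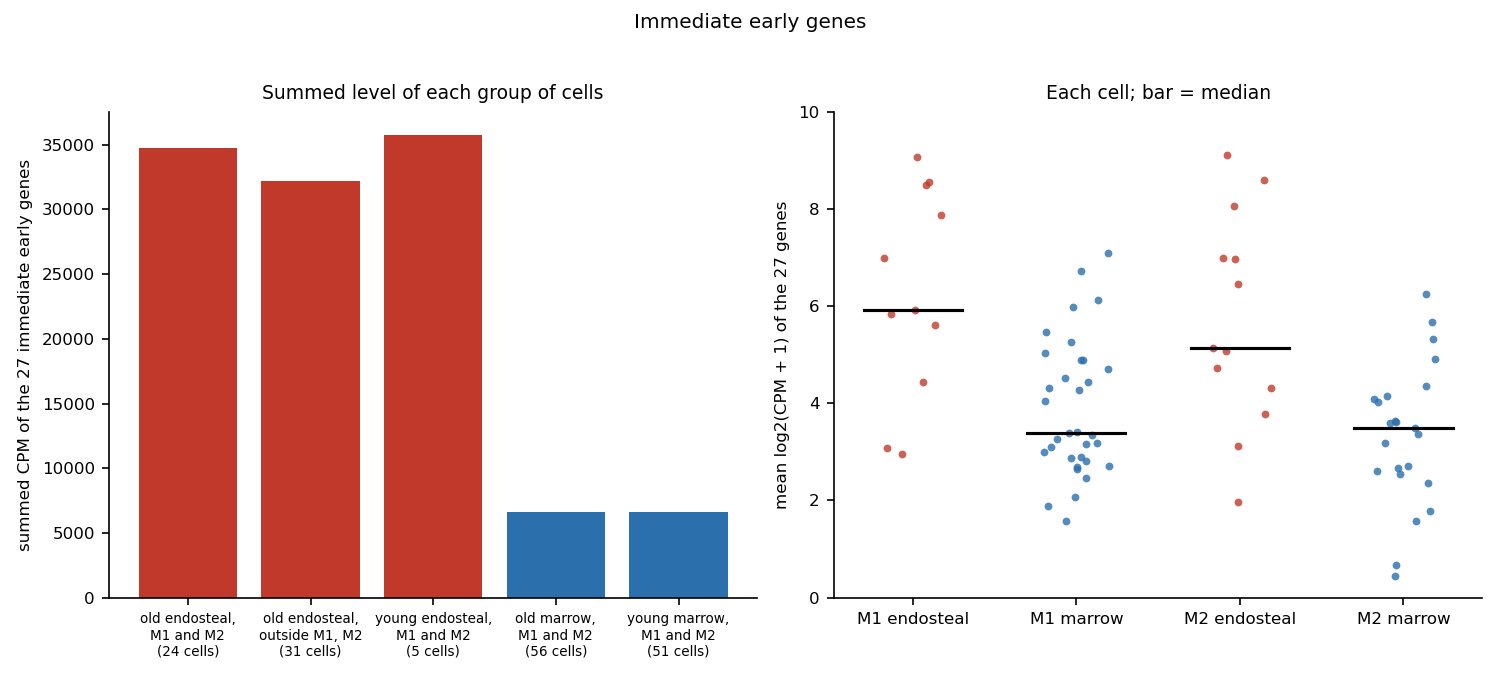
Immediate early genes. The bars give the summed CPM of the 27 measured genes in each group of cells (red endosteal, blue marrow), between 32186 and 35775 CPM in the 3 endosteal groups and 6651 and 6659 CPM in the marrow groups. The points give the mean log2(CPM + 1) of these genes in each of the 80 cells by cluster and side, with the median as a bar.

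Single genes outside the immediate early list were also higher in endosteal cells in both clusters. *Socs3*, which encodes the feedback inhibitor of signalling through JAK and STAT3, was at 3214 CPM (3187 to 3242) in endosteal and 213 CPM (207 to 220) in marrow cells, a log2 ratio of 3.91. It was at 836 CPM in the median endosteal cell (4.65 in the lowest) and 38.4 CPM in the median marrow cell (0 to 1540). For *Socs3* 22 of 24 endosteal cells lay above the marrow median, and 1 cell gave 40.3% of the endosteal counts. *Cebpb*, a transcription factor of acute phase and fat cell genes, was at 367 CPM (357 to 376) and 28.4 CPM (26.04 to 30.9), a log2 ratio of 3.65. For *Cebpb* 12 endosteal cells lay above every marrow cell. Its relative *Cebpd* was at 1293 and 208 CPM (2.63), and *Gadd45g*, a stress sensor upstream of p38, at 660 and 40.5 CPM (3.99). Each of these 4 genes was at least 4-fold higher within M1 and within M2. *Cebpb*, *Cebpd* and *Gadd45g* were not particular to the members. They were at 1217, 857 and 721 CPM in the 31 old endosteal cells outside M1 and M2. In the 23 of these with fewer than 7 leukocyte markers they were at 403, 1179 and 999 CPM. They were at 212, 1145 and 479 CPM in the 5 young endosteal cells and 61.4, 211 and 162 CPM in the 51 young MSC-L cells of M1 and M2.

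The metallothioneins, small proteins that bind zinc and copper, were higher as well. *Mt1* was at 617 CPM (605 to 629) in endosteal and 61.6 CPM (58.1 to 65.2) in marrow cells (log2 ratio 3.30), and *Mt2* at 289 CPM (281 to 298) and 17.4 CPM (15.6 to 19.4) (3.98). *Mt1* was at 163 CPM in the median endosteal cell (0 to 4935) and 12.4 CPM in the median marrow cell (0 to 370), and 21 of 24 endosteal cells lay above the marrow median. Both genes were higher within M1 (2.73 and 3.62) and within M2 (4.53 and 4.29). Of the 22 genes of the antioxidant and metal list, 5 were at least 2-fold higher and 2 at least 2-fold lower, with a median of 0.23. *Hmox1*, the enzyme that breaks down heme, was at 240 and 27.1 CPM (3.10) with 53.7% of its endosteal counts from 1 cell, *Ftl1*, the light chain of ferritin, at 213 and 98.5 CPM (1.11), and *Srxn1*, which restores peroxiredoxins, at 6.37 and 36.6 CPM (-2.35, with -5.16 within M1 and 0.14 within M2).

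Chaperones were partly higher. Of 17 heat shock genes measured, 7 were at least 2-fold higher and 1 at least 2-fold lower, with a median of 0.48 (0.61 within M1 and 0.65 within M2). In OPr members alone 5 were higher and 2 lower (median 0.0026), and in mOPr members alone 6 and 0 (0.63). *Hsp90ab1*, the constitutive form of HSP90, was at 1181 and 509 CPM (1.21), *Hspa8*, its counterpart among HSP70 proteins, at 399 and 127 CPM (1.64), and their co-chaperone *Dnaja1* at 605 and 139 CPM (2.12). *Chordc1*, a partner of HSP90, was the lower member, at 21.1 and 51.1 CPM (-1.24, with -0.11 within M1 and -3.77 within M2). Of 14 genes of the unfolded protein and amino acid stress list, 3 were at least 2-fold higher and 2 lower (median 0.27), among them *Ppp1r15a*, which restores translation after stress, at 266 and 77.5 CPM (1.77), and *Atf4*, the transcription factor of amino acid stress, at 389 and 159 CPM (1.28, with 0.31 within M1 and 1.73 within M2). The summed level of the 17 heat shock genes was 3965 CPM in endosteal and 2147 CPM in marrow members, and 7073 CPM in the other old endosteal cells.

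Inflammatory lists moved less than the immediate early list. Of 23 targets of NF-κB measured, 8 were at least 2-fold higher and 1 lower, with a median of 0.50, which was 0.04 within M1 and 1.42 within M2. In OPr members alone the median was -0.14, against 0.65 in mOPr members alone. *Nfkbiz*, a nuclear regulator of NF-κB, was at 181 and 89.0 CPM (1.02, with 0.03 within M1 and 2.01 within M2), and *Ccl7*, a monocyte chemokine, at 81.2 and 4.00 CPM (4.04), with 76.5% of the endosteal counts of *Ccl7* from 1 cell. *Icam1*, an adhesion molecule, was the lower member by its sum, at 69.9 and 146 CPM (-1.05, with 0.0036 in mOPr members alone and -0.35 within M2), but the median endosteal cell had 26.1 CPM and the median marrow cell 18.8 CPM. The sign of the median thus differed between the gates and not between the clusters, and the difference between M1 and M2 was not tested. In the IL-1 system 2 of 13 genes were at least 2-fold higher and 1 lower (median 0.07, with 0.16 within M1 and -0.70 within M2), near and below the shares of all measured genes (14.4% and 21.2%). *Il1rn*, which encodes the antagonist of the IL-1 receptor, was at 516 and 75.96 CPM (2.75) with 3.18 within M1 and 2.04 within M2, and *Irak3*, an inhibitor of IL-1 receptor signalling, at 12.0 and 32.7 CPM (-1.38, with -5.02 within range 1 and 0.45 within range 2).

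Interferon-responsive genes were not shifted as a group toward endosteal cells. Of 28 measured, 3 were at least 2-fold higher and 6 at least 2-fold lower, with a median of -0.29 (-0.49 within M1 and -0.27 within M2), and the share that was lower is near the 21.2% of all measured genes. The median was 0.21 within range 1 and -0.84 within range 2, -0.90 in OPr members alone and 0.16 with cells thinned to equal depth, so its sign was not stable. *Ifih1*, a sensor of double-stranded RNA, was at 13.5 and 62.6 CPM (-2.13), *Xaf1*, a proapoptotic interferon target, at 0.56 and 32.3 CPM (-4.42), and *Usp18*, which removes ISG15 and dampens interferon signalling, at 1.42 and 20.7 CPM (-3.16). *Gbp2*, a GTPase induced by interferon-γ, was at 146 and 43.2 CPM (1.73), with 0.46 within M1 and 4.30 within M2. These 3 lower members, though not all of the 6, were lower in both clusters, with ratios within M1 and M2 of -3.97 and -1.78 for *Ifih1*, -4.81 and -2.32 for *Xaf1* and -3.37 and -3.10 for *Usp18*. Antigen presentation had 0 of 17 genes at least 2-fold higher and 1 lower (*Cd74*, 0.68 and 6.31 CPM, -2.12), with a median of 0.31, and its most abundant gene *H2-D1* was at 6397 CPM in endosteal and 4407 CPM in marrow cells.

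Niche factors did not pass 2-fold more often than other genes. Of 20 measured, 2 were at least 2-fold higher and 3 at least 2-fold lower, with a median of -0.36 (-0.24 within M1 and -0.35 within M2). Both shares are below those of all measured genes (14.4% higher and 21.2% lower). *Kitl* was at 930 CPM (915 to 945) in endosteal and 1709 CPM (1691 to 1728) in marrow cells, a log2 ratio of -0.88. Endosteal cells ranged from 143 to 1590 CPM with a median of 892, and marrow cells from 23.8 to 9002 CPM with a median of 1144. The medians were close, and 17 marrow cells lay above the highest endosteal cell, so the lower sum came with the absence of cells very high in *Kitl*. The ratio of *Kitl* was -0.60 within M1, -1.25 within M2, -0.08 within range 1 and -1.25 within range 2.

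*Bmp6*, a bone morphogenetic protein that also sets hepcidin in the liver, was at 133 CPM (128 to 139) in endosteal and 468 CPM (458 to 477) in marrow cells, a log2 ratio of -1.81. The median was 40.5 CPM in endosteal cells (0 to 825) and 314 CPM in marrow cells (0 to 1566), and 3 of 24 endosteal cells lay above the marrow median. It was lower within M1 (-1.47) and within M2 (-2.22). The median cell within M1 had 170 CPM in endosteal and 459 CPM in marrow cells. Within M2 the medians were closer, at 15.0 and 23.7 CPM. *Angpt1*, a ligand of TIE2 that steadies vessels, was at 89.8 and 204 CPM (-1.17, with -0.47 within M1 and -2.69 within M2). *Tgfb3* was at 30.7 and 63.3 CPM (-1.02), but -0.35 within M1, -2.05 within M2 and -0.18 in mOPr members alone, and the median endosteal cell had 1.46 CPM and the median marrow cell 0. Among the other TGF-β ligands, *Tgfb1* was at 42.0 and 16.7 CPM (1.28), and *Tgfb2* at 67.4 and 0.47 CPM (5.54), with 10 CPM or more of *Tgfb2* in 6 endosteal and 0 marrow cells. The ratio of *Tgfb1* was 0.72 within M1 and 0.79 within range 1. The median endosteal cell had 0 CPM of *Tgfb1* and the median marrow cell 2.57 CPM. *Bmp6* and *Angpt1* are guide genes of the clusters, so the choice of cells bears on their levels.

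**Figure D2:**
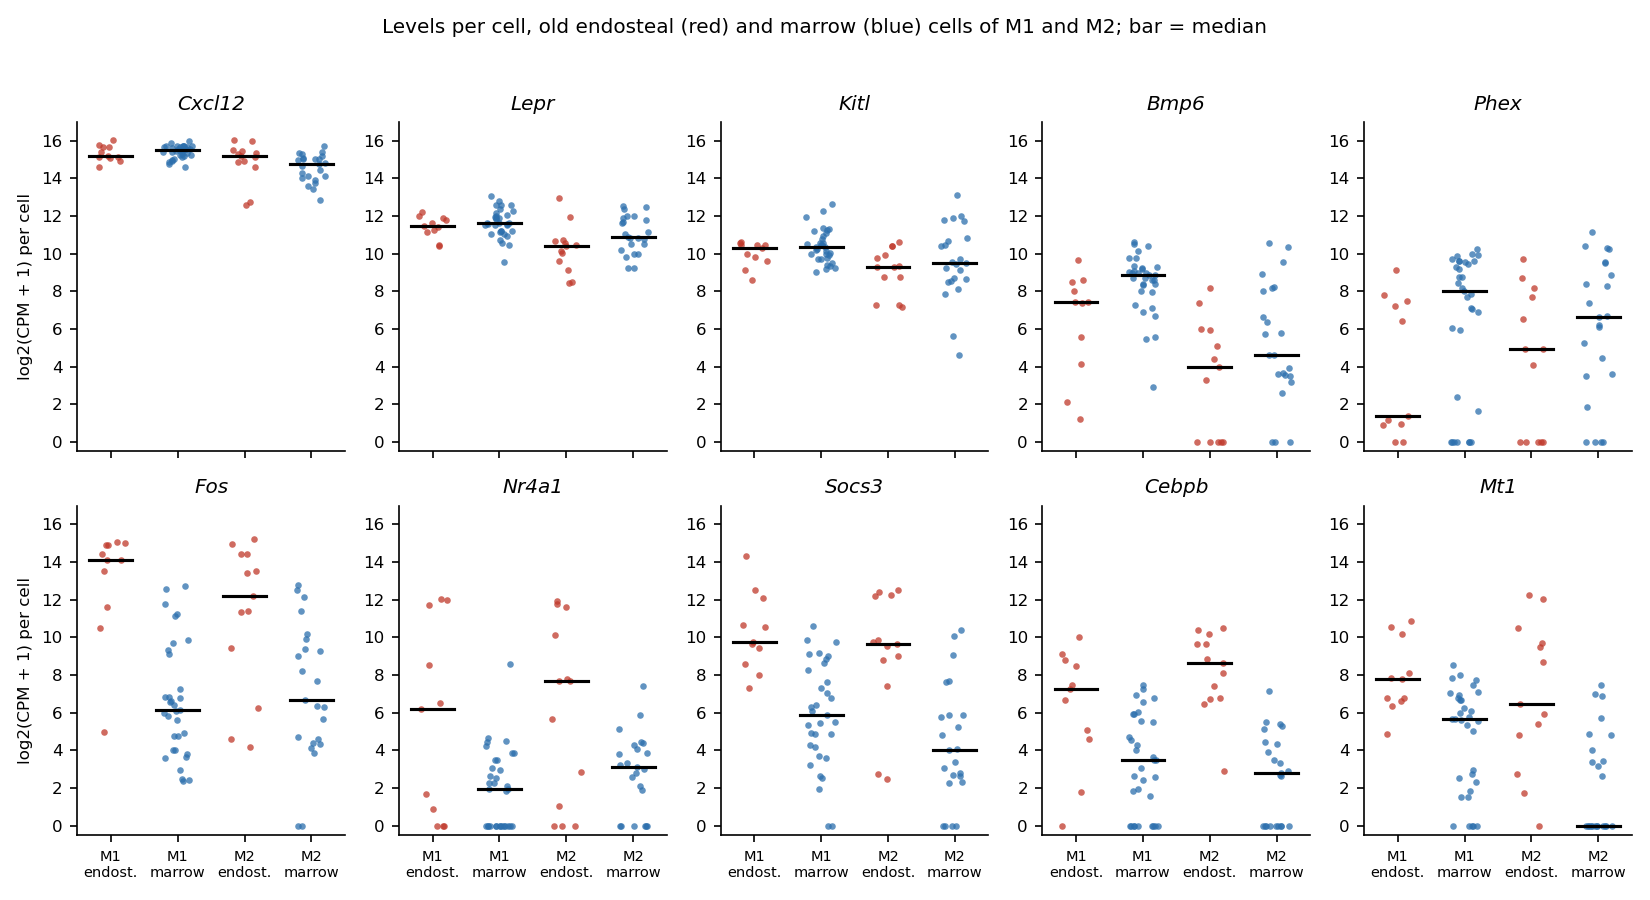
Levels of 10 genes in each of the 80 cells, as log2(CPM + 1), by cluster and side (red endosteal, blue marrow), with the median as a bar. *Cxcl12*, *Lepr* and *Kitl* overlap between the sides, *Bmp6* and *Phex* are lower in endosteal cells, and *Fos*, *Nr4a1*, *Socs3*, *Cebpb* and *Mt1* are higher in them in both clusters.

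The MSC-L identity list itself was nearly level. Of its 25 genes, 18 of them guide genes, 1 was at least 2-fold higher and 1 lower, with a median of -0.13, or -0.21 when guide genes are left out. Per cell, the mean of log2(CPM + 1) over the list had a median of 8.59 in endosteal cells (6.67 to 10.2) and of 9.19 in marrow cells (5.41 to 10.1). Within M1 the medians were 9.34 and 9.49, and within M2 8.04 and 7.81. No endosteal cell lay below the lowest marrow cell with both clusters together, and 1 did within M1.

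Osteolineage genes did not form a common shift, although the endosteal cells were sorted as bone progenitors. Of 23 measured, 6 were at least 2-fold higher and 2 at least 2-fold lower, with a median of 0.24, which was -0.23 within M1 and 0.15 within M2. Within range 1, 2 were higher and 7 lower (median -0.11), and within range 2, 10 and 2 (0.64). *Spp1*, which encodes osteopontin and was the most abundant member, was at 6191 CPM in endosteal and 3863 CPM in marrow cells. *Phex*, a peptidase of osteoblasts and osteocytes that governs phosphate, was at 106 CPM (101 to 111) and 395 CPM (386 to 404), a log2 ratio of -1.89, and lower within M1 (103 and 376 CPM) as within M2 (109 and 440 CPM). The median endosteal cell had 22.6 CPM of *Phex* (0 to 856) and the median marrow cell 187 CPM (0 to 2286). *Phex* was thus lower in the endosteal members than in the marrow members.

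*Alpl* and *Mmp13* differed in opposite directions in the 2 clusters. *Alpl*, the alkaline phosphatase of mineralizing cells, was at 58.4 and 141 CPM within M1 (-1.26) and at 1898 and 263 CPM within M2 (2.85). *Mmp13*, a collagenase of bone and growth plate, was at 19.7 and 264 CPM within M1 (-3.68) and at 2375 and 466 CPM within M2 (2.35). Much of the endosteal counts came from single cells: 1 cell gave 40.2% of the *Alpl* counts and 1 cell 64.4% of the *Mmp13* counts over both clusters. Within M2 the median endosteal cell had 54.04 CPM of *Alpl* and 0 CPM of *Mmp13*, and the median marrow cell 10.05 and 15.07 CPM.

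Matrix genes were mixed. Of 30 genes of the matrix list, 9 were at least 2-fold higher and 1 at least 2-fold lower, with a median of 0.42 (-0.16 within M1 and 0.80 within M2). *Adamts1*, a protease of proteoglycans, was at 825 and 280 CPM (1.55), with 2.61 in mOPr members alone and -0.37 in OPr members alone. *Thbs2*, a matrix protein that restrains vessel growth, was at 423 and 192 CPM (1.14), with 1.83 within M1 and -0.02 within M2. *Adamts5*, an aggrecanase, was at 61.2 and 268 CPM (-2.12) and lower within M1 (-1.57) and M2 (-2.95). The related proteases *Adamts1* and *Adamts5* thus lay on opposite sides. Of 16 collagen genes 1 was at least 2-fold higher (*Col6a3*, 219 and 38.9 CPM, 2.46) and 1 lower (*Col16a1*, 25.0 and 64.1 CPM, -1.32, with -0.11 within M2), with a median of 0.11. Of the endosteal counts of *Col6a3*, 46.9% came from 1 cell. The median endosteal cell had 3.81 CPM of *Col6a3* and the median marrow cell 2.12 CPM.

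Adipogenic genes held the *Cebpb* and *Cebpd* increases without a common direction. Of 18 measured, 5 were at least 2-fold higher and 4 lower, with a median of 0.11 (0.08 within M1 and 1.39 within M2). *Klf15*, a factor of fat cell differentiation, was at 27.3 and 82.6 CPM (-1.56, with -0.07 within range 1), and *Zfp423*, a factor that commits preadipocytes, at 30.1 and 90.3 CPM (-1.55). The early factors of the programme were thus divided.

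Among growth arrest and p53 genes, 4 of 12 were at least 2-fold higher and 1 lower, with a median of 0.55 (0.39 within M1 and 1.62 within M2). Within range 1, 1 was higher and 3 lower (median 0.05), and within range 2, 6 and 0 (0.87). The median was 0.0044 in mOPr members alone. *Cdkn1a*, which encodes the cell cycle inhibitor p21, was at 111 and 19.2 CPM (2.46), with 10 CPM or more in 9 endosteal and 6 marrow cells, and its ratio was 0.20 within range 1 and 5.46 within range 2. *Cdkn1b*, which encodes p27, was at 19.8 and 44.1 CPM (-1.11, with -0.46 in mOPr members alone). The cell cycle inhibitors p21 and p27 thus lay on opposite sides. Of 10 proliferation genes 1 was at least 2-fold higher and 7 lower, with a median of -2.95, but few cells carried them: *Mki67* was at 10 CPM or more in 0 endosteal and 2 marrow cells, and 1 marrow cell gave 99.4% of its marrow counts. *Pcna*, the sliding clamp of DNA replication and repair, was at 66.8 and 16.4 CPM (1.97). Without cells that carry markers of other cell types the proliferation median was 0.048.

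Energy and ribosomal genes were close to level with both ranges together, but not within each range. Oxidative phosphorylation had 0 of 34 genes at least 2-fold higher and 1 lower (*Cox5a*, 4.02 and 11.0 CPM, -1.26, but 1.00 within range 1), with a median of -0.03, which was 0.20 within range 1 (6 higher, 3 lower) and -0.44 within range 2 (1 higher, 9 lower). Ribosomal proteins had 2 of 39 higher and 4 lower (median 0.13), with 13 higher and 3 lower within range 1 (0.39) and 2 higher and 7 lower within range 2 (-0.45), with *Rpl11* at 3.65 and 13.8 CPM (-1.67) and 52.1% of its marrow counts from 1 cell. Glycolysis and hypoxia had 0 of 22 higher and 4 lower (median 0.08): *Pdk1*, which holds pyruvate out of the mitochondrion, at 0.56 and 33.6 CPM (-4.47), *Hk2*, a hexokinase, at 9.27 and 31.4 CPM (-1.66), the glucose transporter *Slc2a1* at 1.61 and 10.0 CPM (-2.08, with 68.6% of its marrow counts from 1 cell), and the vasodilator peptide *Adm* at 13.2 and 42.1 CPM (-1.60, but -2.80 within M1 and 1.77 within M2), with 68.7% of the endosteal counts of *Adm* from 1 cell. The share of this list that was lower is below the 21.2% of all measured genes. The ratio of *Rpl11* was -0.32 within range 2, and that of *Slc2a1* was -0.26 within range 1.

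**Figure D3:**
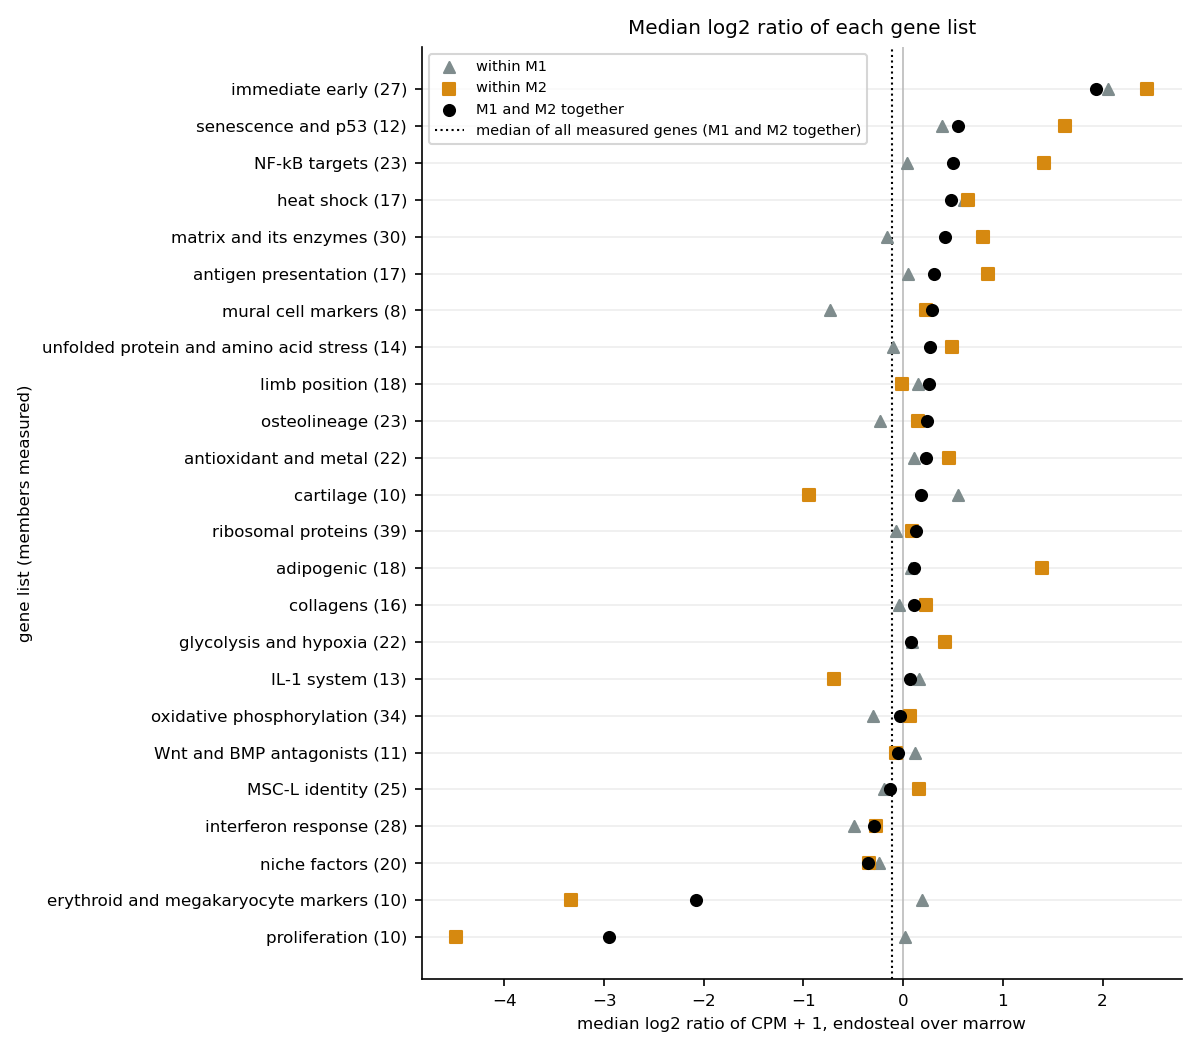
Median log2 ratio of CPM + 1, endosteal over marrow, of each gene list with at least 8 genes measured, with both clusters together (circles), within M1 (triangles) and within M2 (squares). The dotted line is the median of all measured genes (-0.11), and immediate early genes lie farthest to the right in each comparison.

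The largest differences among single genes that kept their direction were taken by a rule of size. Of 5890 genes with enough counts and cells, 2167 had the same direction in M1, in M2, in both ranges and without the top cell of each side, 908 higher and 1259 lower, and 421 and 575 of them were at least 2-fold different. The 12 largest increases were *Nr4a1*, *Tgfb2*, *Cd300lg* (5.35), *Rrad* (4.89), *Ier3*, *Fos*, *Gadd45g*, *Mt2*, *Socs3*, *Cables2* (3.81), *Cebpb* and *Pef1* (3.55). *Cd300lg*, a receptor of the immunoglobulin superfamily, was at 102 and 1.52 CPM with 10 CPM or more in 7 endosteal cells, and its ratio was -1.34 in OPr members alone. *Rrad*, a small GTPase that regulates calcium channels, was at 296 and 9.04 CPM. *Cables2*, a partner of cyclin-dependent kinases, was at 104 and 6.47 CPM with 64.05% of its endosteal counts from 1 cell, and *Pef1*, a calcium-binding protein, at 108 and 8.25 CPM. Of the 12 increases, 8 are thus genes already described above.

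The largest decreases were genes of modest marrow level that few endosteal cells carried, and 11 of the 12 are given here. *Ryr2*, the calcium release channel of the endoplasmic reticulum, was at 2.60 CPM in endosteal and 142 CPM in marrow cells (-5.31), with 10 CPM or more in 1 and 21 cells. *Ciapin1*, a factor of iron-sulfur cluster assembly, was at 1.17 and 56.4 CPM (-4.72). *Arhgap28*, a regulator of RhoA, was at 1.61 and 54.3 CPM (-4.41), and *Mis12*, a kinetochore protein, at 2.04 and 61.9 CPM (-4.37). Genes of cell contact, *Cntnap2* (1.67 and 52.3 CPM, -4.32) and *Tenm2* (2.35 and 61.8 CPM, -4.23), were also among them. *Ahi1*, a protein of the cilium base, was at 5.13 and 86.6 CPM (-3.84), the splicing factor *Sf3a1* at 5.87 and 95.5 CPM (-3.81), and *Nmd3*, which exports ribosomal subunits, at 3.77 and 65.6 CPM (-3.80). *Zfp113* (1.73 and 65.3 CPM, -4.60) and *Zbtb4* (8.34 and 117 CPM, -3.65) encode zinc finger proteins. In these genes most endosteal cells had no count, as had many marrow cells: 21 of 24 endosteal and 25 of 56 marrow cells for *Ryr2*, and 18 and 23 for *Nmd3*.

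**Figure D4:**
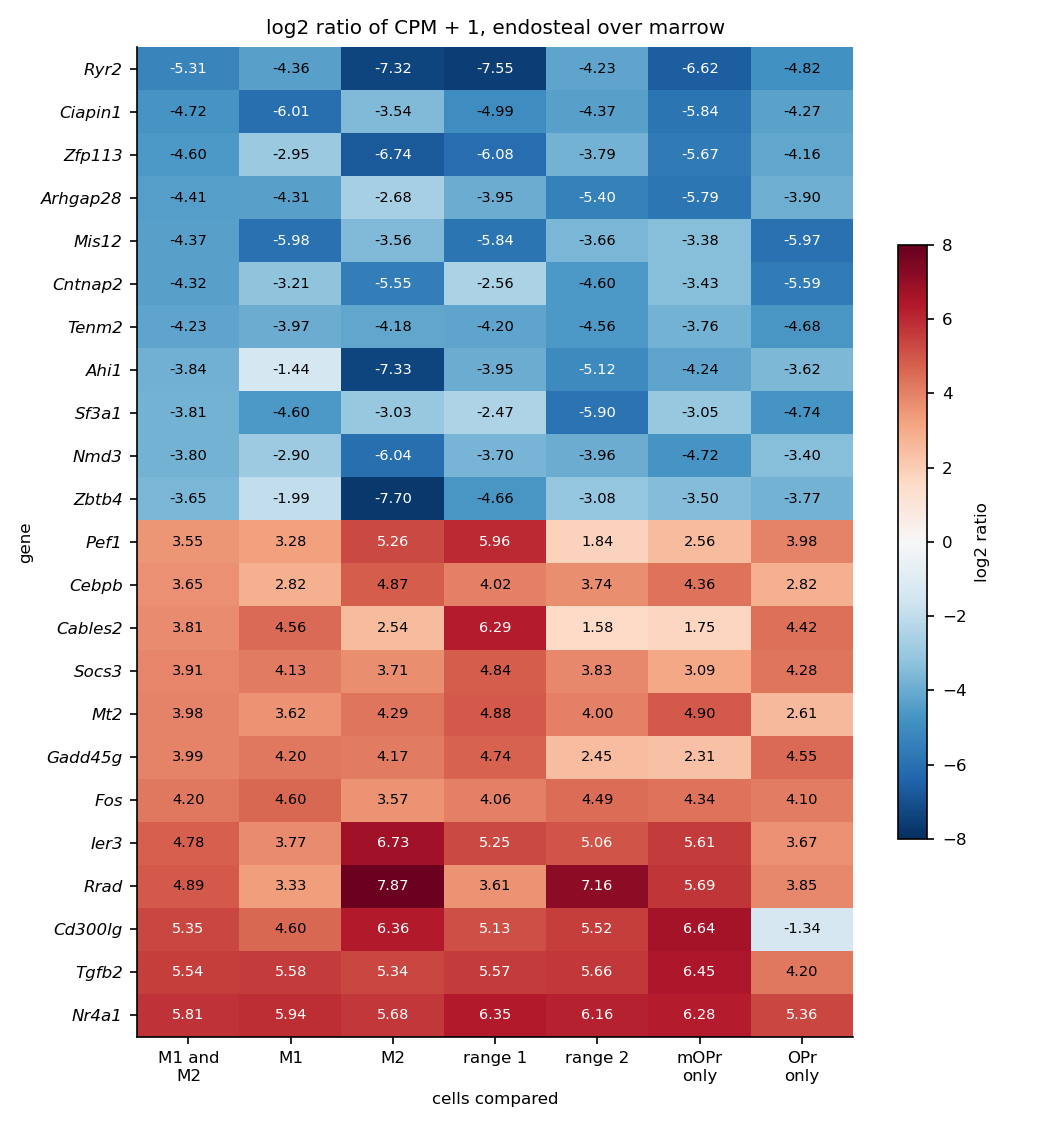
Log2 ratio of CPM + 1, endosteal over marrow, of the 12 largest increases and 11 of the 12 largest decreases that kept their direction (rows), in both clusters together, within M1, within M2, within each range of running numbers and with mOPr or OPr members alone (columns). The columns share cells, and *Cd300lg* in OPr members alone (-1.34) is the only cell of the plot with the opposite sign.

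Promoter sequences from RefSeq (GRCm38.p6, 250 bases before to 50 after a transcript start) are shown for genes that were higher together. These are *Fos* and *Nr4a1* of the immediate early list and the metallothioneins *Mt1* and *Mt2*, each with the first start listed. The *Nr4a1* window lies within the gene, which starts upstream of it at 101254269 by the GENCODE annotation. The motifs, searched on both strands, were chosen after the values and the sequences had been seen, and a match is a description only. Of the 27 immediate early genes measured, 22 had a promoter in the table, and *Egr1*, *Myc*, *Ctgf*, *Cyr61* and *Ier2* had none. The cyclic AMP response element TGACGTCA was in 4 of the 22 (18.2%) and in 2.03% of the promoters of all 27025 genes, and its core TGACG, which the full element contains, in 13 (59.1%) and 23.05%. The CArG box, to which serum response factor binds, was in 2 (9.09%) and 1.81%, and the AP-1 sites TGACTCA and TGAGTCA in 0 and 5.95%. The metal response element, written TGCACNC or TGCGCNC, was in both metallothioneins, in 12 of the 22 immediate early genes (54.5%) and in 28.2% of all. Capitals mark TGACG or its reverse complement in *Fos* and *Nr4a1* and the metal response element in *Mt1* and *Mt2*.
Fos, chr12:85473640-85473939, plus strand: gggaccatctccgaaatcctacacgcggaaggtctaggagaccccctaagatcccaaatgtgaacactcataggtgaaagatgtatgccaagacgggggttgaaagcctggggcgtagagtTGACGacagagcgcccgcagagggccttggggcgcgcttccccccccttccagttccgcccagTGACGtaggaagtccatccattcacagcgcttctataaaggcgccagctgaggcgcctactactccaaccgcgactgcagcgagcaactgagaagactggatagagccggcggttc
Nr4a1, chr15:101266596-101266895, plus strand: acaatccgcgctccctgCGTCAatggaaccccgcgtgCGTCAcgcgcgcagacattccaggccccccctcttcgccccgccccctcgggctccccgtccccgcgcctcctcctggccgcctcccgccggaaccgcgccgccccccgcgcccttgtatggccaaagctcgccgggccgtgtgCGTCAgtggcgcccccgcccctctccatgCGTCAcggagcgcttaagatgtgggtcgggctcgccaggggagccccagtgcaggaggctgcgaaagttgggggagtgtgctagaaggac
Mt1, chr8:94178839-94179138, plus strand: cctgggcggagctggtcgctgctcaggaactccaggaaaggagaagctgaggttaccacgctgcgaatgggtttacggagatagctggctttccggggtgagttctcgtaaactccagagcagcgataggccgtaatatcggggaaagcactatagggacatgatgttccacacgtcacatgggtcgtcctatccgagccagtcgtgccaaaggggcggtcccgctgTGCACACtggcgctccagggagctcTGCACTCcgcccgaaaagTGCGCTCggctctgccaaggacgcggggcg
Mt2, chr8:94172368-94172667, plus strand: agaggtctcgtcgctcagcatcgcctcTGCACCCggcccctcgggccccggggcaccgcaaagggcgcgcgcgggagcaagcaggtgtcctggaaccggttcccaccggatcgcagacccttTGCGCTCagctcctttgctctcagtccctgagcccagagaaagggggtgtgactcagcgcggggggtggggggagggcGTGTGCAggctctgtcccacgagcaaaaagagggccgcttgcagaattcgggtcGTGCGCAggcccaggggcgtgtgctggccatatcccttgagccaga
The *Fos* window holds 2 copies of TGACG and the *Nr4a1* window 4, and the *Mt1* and *Mt2* windows hold 3 and 4 metal response elements. *Mt1* and *Mt2* lie close together on chromosome 8 of GRCm38, *Mt2* from 94172664 to 94173568 and *Mt1* from 94179082 to 94180327 by the GENCODE M21 annotation.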

How the data were processed

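The deposited counts were made by the authors, who aligned reads to GRCm38.p4 with GSNAP (2015-09-29) and counted genes with HTSeq, ignoring strand, and left the counts without normalization. Of the 661 columns, 169 were read and 492 were not used. Of the 46078 gene entries, 270 repeated a symbol and were added to it, and 37 mitochondrial genes were kept out of CPM. Counts were summed per side. Ratios have 1 CPM added to each level, and intervals are exact at 95%. Python 3.11.15 was used, with scipy 1.17.1, numpy 2.4.6, pandas 2.3.3 and, for plots, matplotlib 3.10.9, and the code was tested on simulated data. Doublets were not called, but cells with 3 or more markers of leukocytes, of erythroid cells and megakaryocytes or of endothelium at 10 CPM or more were counted.

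Named genes were the 3 markers and the genes of the sort, up to 4 genes of each of 30 lists in each direction, by level, and the 12 largest increases and decreases among genes with at least 1000 counts, at 10 CPM or more in at least 25% of the cells of a side, that kept their direction in both clusters, both ranges and without the top cell of each side. Of these 138 genes, 95 are reported. Members and lists were chosen with earlier results of these data known.

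Alternatives were cell-wise CPM averaged over a side, size factors by median of ratios, cells thinned to 100000 counts (1 marrow cell was too shallow), 0.1 CPM added in place of 1, low genes kept, equal weight for M1 and M2, each range, mOPr or OPr members alone, and leaving out the top cell of each side, cells with markers of other cell types or guide genes.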

Additional observations from a re-analysis of the deposited data

Results flagged for a closer look

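Among the genes named in this report, in 3 the difference between endosteal and marrow cells ran in opposite directions within M1 and within M2, at least 2-fold in each cluster and also without the top cell of each side. The log2 ratio of *Alpl* was -1.26 within M1 and 2.85 within M2. The log2 ratio of *Mmp13* was -3.68 within M1 and 2.35 within M2. The log2 ratio of *Coro1a*, an actin regulator of blood cells, was 4.70 within M1 and -1.11 within M2, from 10 CPM or more in 2 endosteal cells and 1 marrow cell. Its levels in endosteal and marrow cells were 34.7 and 0.38 CPM within M1 and 0.26 and 1.73 CPM within M2. The ratio within M2 thus rests on very few counts. Over all measured genes, 551 were at least 2-fold higher within M1 and lower within M2 and 806 the reverse, with all cells counted. With each group summed as 1 sample, the difference between M1 and M2 was not tested.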

How the results depend on the processing

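Of the 87 named genes that were at least 2-fold different, 77 kept their direction in all 10 alternatives run for genes, and 51 of them stayed at least 2-fold different in each. Of the 138 genes the rule chose, 33 of the 130 that were at least 2-fold different changed direction in 1 or more alternatives. The largest increases and decreases had been chosen to keep their direction in both ranges and without the top cell, which are among these alternatives. These counts thus follow in part from the choice of genes, and the reported genes kept their direction more often than all those chosen. Of 304 values of 26 list medians, 271 moved by less than 0.5. The sign changed in 43 values, which belong to 18 lists, and 4 of the 43 changed from a median at least 0.5 away from 0. Of 76 counts and shares, 69 stayed within 1.5 times their value or within their interval.

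The number of genes at least 2-fold lower was 4291 with no filter on low genes and 3963 with mOPr alone. Within M1 the genes at least 2-fold lower were 5932 with mOPr alone, and without the top cell of each side 1036 were higher and 5138 lower. Within M2, 6027 were lower with OPr alone. A sum over fewer cells, or without its top cell, holds fewer counts by construction. The share of M2 was 30.0% in OPr alone.

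With OPr alone the log2 ratio of *Ly6a* was -1.64, of *Adamts1* -0.37 and of *Cd300lg* -1.34, and the NF-κB median was -0.14. With mOPr alone it was 0.0036 for *Icam1* and -0.46 for *Coro1a*. In range 1 alone it was -1.40 for *Mmp13*, 0.68 for *Mki67* and 1.00 for *Cox5a*, and the proliferation median was 0.27. In range 2 alone it was 0.45 for *Irak3*. Without cells with markers of other cell types it was 0.22 for *Mki67* and 1.95 for *Car2*, and the proliferation median was 0.048. With no filter on low genes the median of MSC-S and fibroblast markers was -0.15. Changes of sign with a move of at least 0.5, from a smaller median, were found for the cartilage list (-1.21 in range 1, -0.60 with OPr alone, -0.90 without guide genes), the mural list (-0.27 in range 1, -0.45 with mOPr alone, -0.88 with OPr alone, -0.41 without cells with markers of other cell types), the interferon list (0.21 in range 1), limb position (-0.31 with mOPr alone) and ribosomal proteins (-0.45 in range 2). The cause was not tested.

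No paired analysis was possible because the running numbers in the titles only name cells and the mouse of a cell is not named. Each side holds cells of mice that cannot be told apart and was treated as 1 sample. The sides differ in bones and digestion, and depth differed between them, so values describe these cells only.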

Other observations

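Genes of limb position and secreted antagonists showed scattered differences. Of 18 genes of limb position measured, 5 were at least 2-fold higher in endosteal cells and 0 lower, against 14.4% and 21.2% of all measured genes, with a median of 0.26. In mOPr members alone 3 were higher and 4 lower (median -0.31), and within M1 4 were higher and 4 lower. *Hoxa10* was at 125 CPM in endosteal and 58.8 CPM in marrow cells (log2 ratio 1.07, with 0.33 within range 2), *Hoxa9* at 76.3 and 25.3 CPM (1.56, with 0.10 within M1), and *Hoxc9* at 19.04 and 5.73 CPM (1.57), each a homeobox gene of position along the body axis. The endosteal cells came from arm and pelvic bones as well as legs, and the part of the bones in these values was not tested. Of 11 Wnt and BMP antagonists, 1 was at least 2-fold higher (*Wif1*, a Wnt inhibitor, at 795 and 275 CPM, 1.53, with 0.18 within M1) and 1 lower (*Nog*, a BMP antagonist, at 1.17 and 6.05 CPM, -1.70), with a median of -0.05.

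Markers of other cell types were low on both sides. Of 18 leukocyte genes 3 were measured, with 1 higher (*Coro1a*, 18.4 and 0.79 CPM, 3.44, with 80.5% of its endosteal counts from 1 cell) and 1 lower (*Lyz2*, 0.31 and 7.10 CPM, -2.63, with 56.3% of its marrow counts from 1 cell), and the summed level of all 18 was 40.0 CPM in endosteal and 30.4 CPM in marrow cells. Of 10 erythroid and megakaryocyte genes 0 were higher and 6 lower (median -2.07). The median was 0.19 within M1, and -0.62 without cells that carry markers of other cell types. All 14 listed genes summed to 55.5 and 299 CPM, with 76.1% of the marrow sum from 1 cell, and the 10 measured to 53.8 and 266 CPM. *Car2*, a carbonic anhydrase, was at 2.97 and 99.8 CPM (-4.67), with 93.6% of its marrow counts from 1 cell. Of 2 endothelial genes 1 was lower (*Vwf*, 4.76 and 23.1 CPM, -2.06), and the summed level of all 15 listed was 13.1 and 47.4 CPM. In all, 1 endosteal and 14 marrow cells carried 3 or more markers of such a list.

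Of 5 MSC-S and fibroblast markers, all guide genes, 2 were higher and 1 lower (median 0.93). *Gsn*, an actin-severing protein, was at 1070 and 100 CPM (3.40), with 43.9% of its endosteal counts from 1 cell, and *Mfap5*, a microfibril protein, at 1.73 and 66.2 CPM (-4.62). The ratio of *Gsn* was 0.61 within M1 and 3.68 within M2. Within M1 the median endosteal cell had 2.58 CPM of *Gsn* and the median marrow cell 19.7 CPM. Of 8 mural cell markers 3 were higher and 2 lower (median 0.29), but the median was -0.45 in mOPr and -0.88 in OPr members alone and -0.73 within M1. The filament gene *Des* was at 92.8 and 18.1 CPM (2.30, and 0.45 within range 2), with 56.5% of its endosteal counts from 1 cell. Of 10 cartilage genes 4 were higher and 3 lower (median 0.18, with -1.21 within range 1, 1.08 within range 2, -0.95 within M2 and -0.90 without guide genes), with *Comp* at 114 and 38.5 CPM (1.55) and *Fmod* at 70.0 and 5.36 CPM (3.48). The ratio of *Fmod* was 0.56 within range 1, and 1 cell gave 45.1% of its endosteal counts. For *Comp*, 1 cell gave 40.7% of the endosteal counts and 1 cell 49.3% of the marrow counts. Schwann cell markers had 0 of 3 higher and 1 lower (median 0.31).

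The methods name both sexes. A Y-linked gene was at 10 CPM or more in 22 of 24 endosteal and 51 of 56 marrow cells, and *Xist* in 0 and 1. Of 4 sex-linked genes measured 0 were higher and 1 lower (median -0.59), namely *Ddx3y* with a log2 ratio of -1.53.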
